A study of Mus musculus with 435 samples.

Results

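Livers of C57 mice on a high-fat diet were compared with livers of C57 mice on a low-fat diet at weeks 9, 10 and 11, the last weeks of a feeding study that also followed the strain A/J. The comparison holds 57 of the 435 arrays of the series, 28 from the high-fat diet (8 at week 9, 10 at week 10 and 10 at week 11) and 29 from the low-fat diet (10, 10 and 9). Arrays were taken by strain, diet and week as the titles give them, and an array was to be left out if its correlation with the median of all arrays was below 0.15. None was, since the lowest value was 0.501 among high-fat arrays and 0.345 among low-fat arrays. C57 and A/J are inbred laboratory strains. Each array carried total liver RNA of an experimental animal in the Cy5 channel and a pooled RNA of 10 tissues of C57 mice, liver among them, in the Cy3 channel. The labels give neither the makeup of the diets nor the age or sex of the animals, and they do not say which arrays share a mouse. The p-values below therefore measure the spread between arrays, part of which may be technical. In some groups values differed between odd and even sample numbers, as given below. The main test of diet had no term for odd and even numbers, and the cause was not tested.

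The liver takes up dietary fat, makes fatty acids from sugar, and packs both into triglycerides that leave the organ in lipoproteins. Stearoyl-CoA desaturase introduces the double bond that turns saturated into monounsaturated fatty acids, and its hepatic transcript follows insulin, dietary sugar and dietary fat. The liver also secretes most plasma proteins, among them hepcidin, the hormone that limits iron entry into blood.

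Values are log2 ratios of liver over the pooled reference, with each array centred on its own median, so that 0 is the median probe of the array. Between 4975 and 14238 probes were measured per high-fat array and between 5127 and 13866 per low-fat array, with medians of 11636.5 and 11393. In week 11 high-fat arrays 12394 to 13629 probes were measured on odd sample numbers and 7562 to 8707 on even ones. These ranges were also apart at week 9 on both diets and overlapped in the other groups. At week 9 Tmem238l ran from 0.29 to 0.91 on odd and from 2.08 to 2.51 on even low-fat arrays. On high-fat arrays of that week it ran from 0.36 to 1.79 and from 2.58 to 2.92. At weeks 10 and 11 its odd and even ranges overlapped on both diets. The median correlation with the median array was 0.651 on the high-fat diet and 0.595 on the low-fat diet. All 8 arrays with a correlation under 0.5 were low-fat arrays (3 at week 9, 3 at week 10 and 2 at week 11), and the counts without them are given beside the result. The 13 hepatocyte genes that could be tested all had a mean level above 0, and the mean over that list was 0.96 ± 0.36 on high-fat arrays and 0.92 ± 0.29 on low-fat arrays (SD over 28 and 29 arrays), which matches the label of liver on both diets. The signal strength behind a ratio is unknown here, and the number of arrays limits the precision. In whole liver, fewer cells of a type and less RNA per cell cannot be told apart.

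Of 8151 probes tested for high-fat minus low-fat with week held as a block, 19 passed an adjusted p of 0.05 (limma with Benjamini-Hochberg adjustment over all 8151 probes), which is 0.233% of those tested. On the high-fat diet 11 were higher (0.135%) and 8 were lower (0.0981%). All 19 kept their direction in each of the 3 weeks. Without the 8 low-fat arrays of low correlation 10 of the 19 passed. The calls of Thrsp (1.29, adjusted p = 0.146), Apoc2 (0.87, adjusted p = 0.0905), Hamp (-0.55, adjusted p = 0.0851), Tlx3, Lypla2, Nme4, Selenbp2 and 4933401D09Rik ended with their direction kept, and Dnase2a could not be tested there. The genes raised on the high-fat diet included the desaturase Scd1, the lipogenic protein gene Thrsp and the apolipoprotein gene Apoc2. Those lowered included the hepcidin gene Hamp, the selenoprotein synthesis factor gene Secisbp2 and the ribosomal protein gene Rpl13a. Most differences were small: 8 probes differed by more than 1 on the log2 scale, and 6 of these passed. Across all probes the median difference was -0.00105, and 595 probes (7.3%) had an unadjusted p under 0.05.

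**Figure D1:**
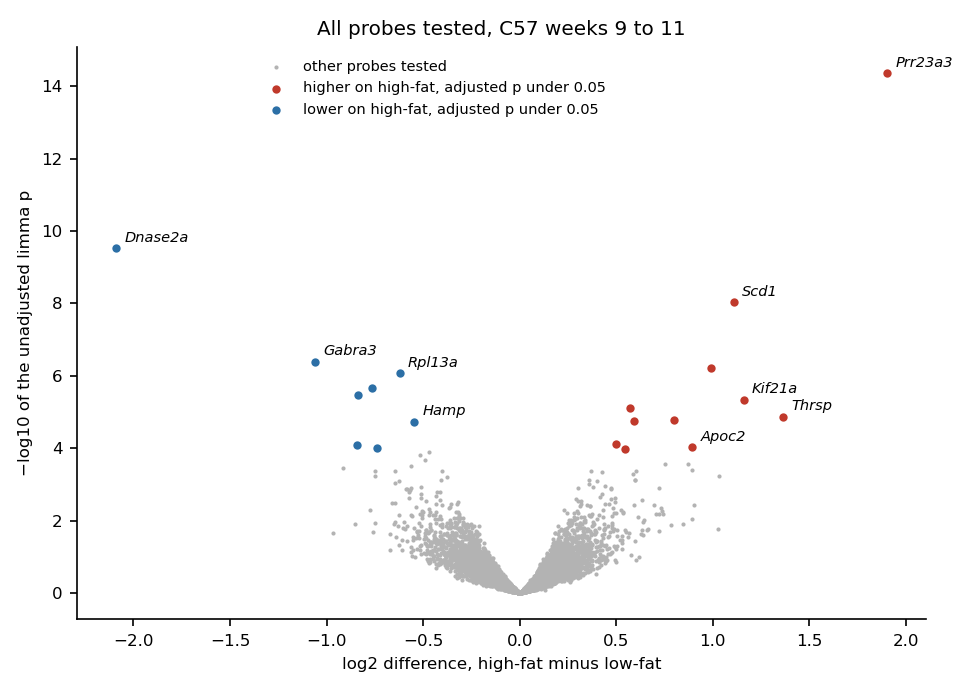
The horizontal axis is the log2 difference, high-fat minus low-fat, and the vertical axis is minus log10 of the unadjusted limma p, with 1 point for each of the 8151 probes tested. Red points are the 11 probes that passed as higher on the high-fat diet and blue points the 8 that passed as lower, and Prr23a3 and Dnase2a stand farthest from the bulk.

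Thrsp, a lipogenic gene that was higher on the high-fat diet, and Hamp, a hormone gene that was lower, are among the genes that passed. Their promoter windows are shown for reading beside their values, and no window of Scd1 was available. Each window runs 5′ to 3′ over 300 bases of RefSeq assembly GRCm38.p6, and both lie on the minus strand of chromosome 7, Thrsp at chr7:97417501-97417800 and Hamp at chr7:30943980-30944279. Capitals mark the motifs found when both strands were searched.
Thrsp: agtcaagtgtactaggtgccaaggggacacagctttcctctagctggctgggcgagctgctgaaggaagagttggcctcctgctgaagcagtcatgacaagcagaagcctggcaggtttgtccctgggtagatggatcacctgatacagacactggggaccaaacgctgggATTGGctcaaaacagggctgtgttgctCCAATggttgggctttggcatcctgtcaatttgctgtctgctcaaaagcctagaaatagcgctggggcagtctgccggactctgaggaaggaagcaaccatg
Hamp: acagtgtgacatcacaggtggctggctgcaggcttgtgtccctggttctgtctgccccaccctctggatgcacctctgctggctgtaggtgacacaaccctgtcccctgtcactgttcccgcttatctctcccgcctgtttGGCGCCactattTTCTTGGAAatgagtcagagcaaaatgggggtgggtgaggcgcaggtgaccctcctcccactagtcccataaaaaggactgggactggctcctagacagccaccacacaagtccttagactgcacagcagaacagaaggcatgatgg
The Thrsp window holds the CCAAT box once on the reverse strand, read as ATTGG at -79 from the start of the gene, and once as CCAAT at -52. In the Hamp window GGCGCC, the core of the bone morphogenetic protein element, starts at -109, and the palindrome TTCNNNGAA, the core of the signal transducer element, starts at -97. None of these matches overlaps another. Of 32851 RefSeq promoter windows of the same length, 37.4% hold CCAAT on either strand, 11.9% hold GGCGCC and 8.3% hold TTCNNNGAA. Also searched, with no match in either window, were the palindromic E-box CACGTG (7.15% of windows), the TATA box TATAAA (13.6%), the GC box GGGCGG (35.7%) and the sterol element (0.0913%). The same held for the direct repeats of AGGTCA with spacers of 1 (0.0396%) and 4 bases (0.0152%). A match describes the letters only and is not a binding site.

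Scd1, the gene of stearoyl-CoA desaturase 1 on chromosome 19, was higher on the high-fat diet. On 27 high-fat arrays its log2 ratio ran from 0.26 to 2.89 with a median of 1.51, against -1.36 to 1.05 with a median of 0.40 on 27 low-fat arrays. The groups overlapped in part: 18 high-fat arrays lay above every low-fat array, and 8 low-fat arrays lay below every high-fat array. The difference was 1.11 (SE 0.16), a level 2.16-fold higher, with an adjusted p of 2.48e-05 in limma. By week the difference was 0.62 at week 9, 1.57 at week 10 and 1.08 at week 11. The medians of the high-fat arrays were 1.22, 1.88 and 1.46 at those weeks, while those of the low-fat arrays were 0.43, 0.35 and 0.40. At week 9 the high-fat values ran from 0.38 to 0.98 on odd sample numbers and from 1.46 to 1.61 on even ones. The low-fat values of that week ran from 0.04 to 0.70 on odd and from 0.21 to 0.81 on even numbers. At weeks 10 and 11 the odd and even high-fat ranges overlapped. A probe for Scd1 may also bind transcripts of the closely related Scd2, so the value may hold both.

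Thrsp encodes Spot 14, a nuclear protein that rises with lipogenic feeding and thyroid hormone. Its log2 ratio ran from -1.87 to 1.94 with a median of 0.32 on 24 high-fat arrays, and from -2.82 to 0.60 with a median of -1.25 on 18 low-fat arrays. The high-fat median lay above 0, the median probe, and the low-fat median below it, and 22 of 24 high-fat arrays exceeded the low-fat median. The difference was 1.37 (SE 0.28, 2.58-fold, adjusted p = 0.0100 in limma). It came to 0.87 at week 9, 1.76 at week 10 and 1.51 at week 11. At week 11 the probe was measured on 8 high-fat arrays and on 4 low-fat arrays. The adjusted p was 0.459 without week 10 and 0.0525 without week 11, and the probe was too sparsely measured to be tested without week 9.

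Among the other genes of fatty acid and triglyceride synthesis, none passed. The list holds 27 genes, of which 18 could be tested: 2 rose, none fell, 12 had a difference above 0 and 6 below 0. Of all 7744 genes tested, at 1 probe a gene, 11 rose and 7 fell past the threshold. At an unadjusted limma p under 0.05, 5 of the 18 were higher and none lower. Over all genes tested 268 were higher and 301 lower at that p. The median difference of the list was 0.11, against -0.000602 over the 7744 genes tested, and 49.7% of all probes tested had a difference above 0. The elongase gene Elovl5 averaged 1.60 ± 1.11 on 23 high-fat arrays and 0.51 ± 0.92 on 21 low-fat arrays (SD), a difference of 1.03 (SE 0.28) with an adjusted p of 0.133 in limma. Agpat2, an acyltransferase of triglyceride synthesis, differed by 0.43 (adjusted p = 0.410 in limma). Mlxipl, the gene of the sugar-responsive factor ChREBP, differed by 0.24 with an adjusted p of 0.544. The fatty acid synthase gene Fasn differed by 0.14 and the ATP-citrate lyase gene Acly by -0.17, with adjusted p of 0.892 and 0.831. The synthesis genes that passed were thus Scd1 and Thrsp, and the differences of the synthase and lyase genes lay near 0.

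NADPH for fat synthesis comes in part from the pentose phosphate pathway, and its enzyme gene Pgd averaged -0.53 ± 0.64 on 23 high-fat arrays and -1.39 ± 0.90 on 18 low-fat arrays. Its difference of 0.87 (SE 0.22) missed the threshold, with an adjusted p of 0.0939 in limma, and was 0.77, 0.91 and 0.95 at weeks 9, 10 and 11. None of the 17 glucose metabolism genes tested passed, and 11 had a difference above 0, with a median of 0.06. Over all probes tested 49.7% had a difference above 0. G6pc, the last enzyme of glucose release, differed by 0.64 with an adjusted p of 0.585.

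Apoc2, the gene of the cofactor that activates lipoprotein lipase, was higher on the high-fat diet. Its log2 ratio ran from -0.98 to 2.08 with a median of 0.49 on 23 high-fat arrays, and from -3.05 to 0.75 with a median of -0.26 on 27 low-fat arrays. The groups overlapped widely, with 19 of 23 high-fat arrays above the low-fat median. The difference was 0.89 (SE 0.21, adjusted p = 0.0440 in limma), and it passed in 29 of the 57 fits that each left out 1 array. With ratios at or below 0 set to the lowest positive ratio of the array it was 0.66 (adjusted p = 0.626). By week it was 0.48, 1.40 and 0.88 at weeks 9, 10 and 11.

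Of 15 apolipoprotein and lipoprotein assembly genes tested, Apoc2 alone passed. A difference above 0 was seen in 11 and one below 0 in 4, with a median of 0.14. Over all 7744 genes tested, at 1 probe a gene, 11 passed as higher and 3864 had a difference above 0, with a median of -0.000602. Apoe, the ligand of hepatic remnant receptors, averaged 1.24 ± 0.55 on 28 high-fat arrays and 0.82 ± 0.42 on 29 low-fat arrays, a difference of 0.38 with an adjusted p of 0.197 in limma. Apoa1, the main protein of high-density lipoprotein, averaged 1.97 ± 0.87 on 26 high-fat arrays and 1.59 ± 0.69 on 28 low-fat arrays (adjusted p = 0.748).

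None of the 14 genes of fatty acid uptake, binding and lipid droplets passed, and their differences split 7 above and 7 below 0 with a median of 0.01. Fabp2, a fatty acid-binding protein best known from intestine, had the smallest p of that list and differed by 0.47 (adjusted p = 0.306 in limma). Likewise none of 20 genes of fatty acid oxidation and ketone bodies passed (median 0.04), and none of 5 tested genes of cholesterol synthesis and uptake did (median 0.12). Lypla2, which encodes an acyl-protein thioesterase that removes palmitate from proteins, belongs to none of these lists. It exceeded its low-fat level by 0.55 (SE 0.13, adjusted p = 0.0440 in limma). Values ran from -0.27 to 1.23 with a median of 0.53 on 26 high-fat arrays and from -1.29 to 0.70 with a median of 0.05 on 26 low-fat arrays. Here 24 high-fat arrays lay above the low-fat median, and the differences by week were 0.12, 0.77 and 0.77. Lypla2 passed in 27 of the 57 fits that each left out 1 array.

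**Figure D2:**
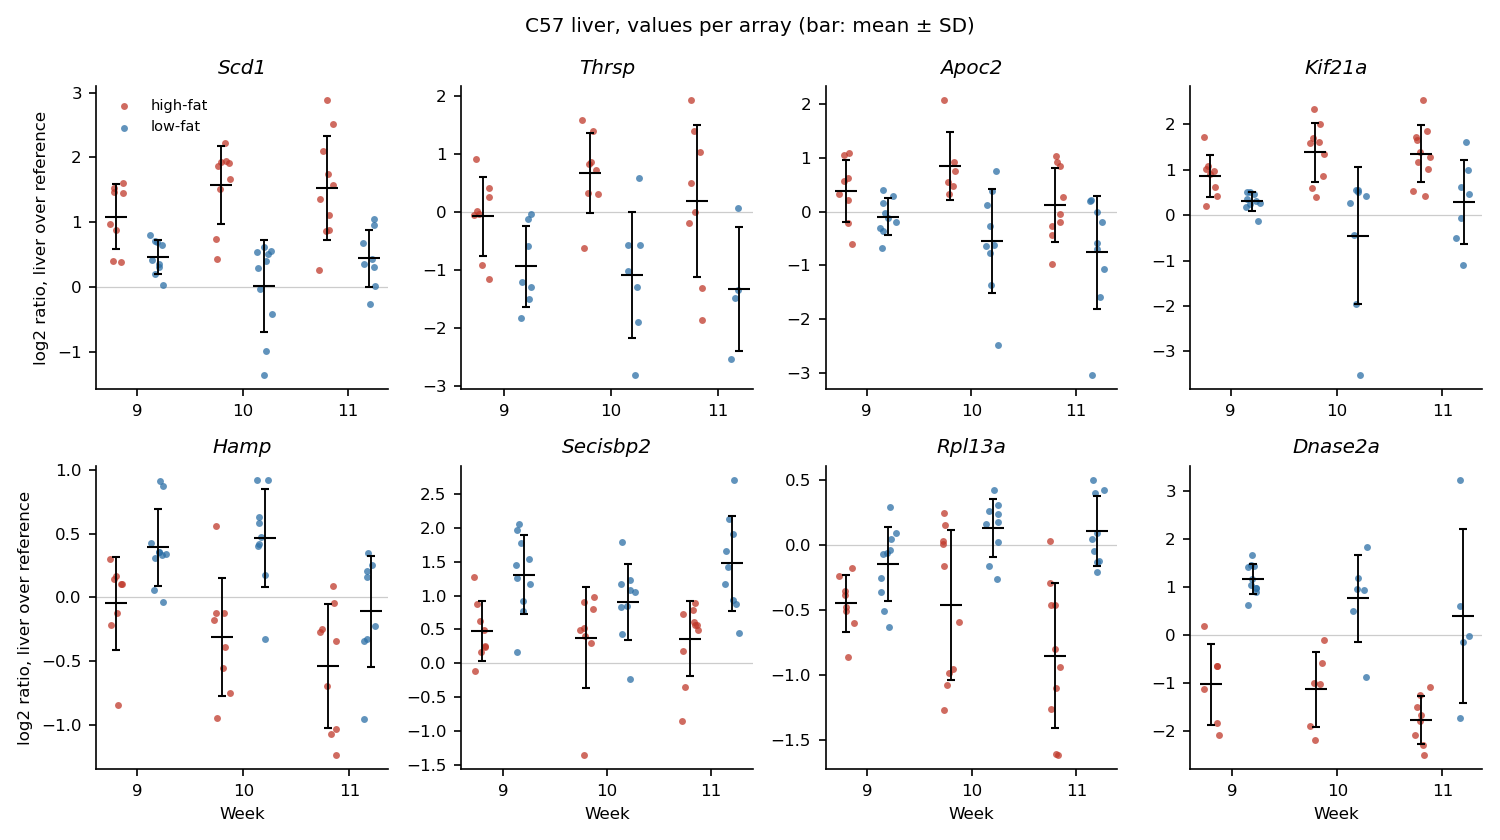
Each panel gives 1 gene, with the week on the horizontal axis and the centred log2 ratio of liver over reference on the vertical axis; points are arrays, high-fat in red left of low-fat in blue, and bars are the mean and SD. Scd1, Thrsp, Apoc2 and Kif21a have higher means on the high-fat diet in all 3 weeks and Hamp, Secisbp2, Rpl13a and Dnase2a lower ones, with arrays of both diets overlapping in most weeks.

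Hamp, the hepcidin gene, was lower on the high-fat diet. Ratios ran from -1.24 to 0.56 with a median of -0.21 on 25 high-fat arrays, against -0.95 to 0.92 with a median of 0.34 on 27 low-fat arrays. All but 1 of the 25 high-fat arrays lay below the low-fat median, though the ranges overlapped. The difference was -0.55 (SE 0.12), a level 1.46-fold lower, with an adjusted p of 0.0107 in limma. It was -0.44 at week 9, -0.78 at week 10 and -0.43 at week 11. Leaving out any 1 week ended its call, with adjusted p of 0.173 without week 9, 0.459 without week 10 and 0.0525 without week 11. The mouse has a second hepcidin gene, Hamp2, whose near-identical transcript the probe may also bind.

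Hamp was the only one of 22 acute phase, complement and coagulation genes to pass, and 14 of the 22 had a difference below 0, with a median of -0.12. Over all 7744 genes tested, at 1 probe a gene, 7 passed as lower and 3880 had a difference below 0. Members of the list lay on both sides of 0. The serum amyloid gene Saa2 averaged 0.47 ± 0.33 on 28 high-fat arrays and 0.11 ± 0.39 on 29 low-fat arrays, a difference of 0.36 with an adjusted p of 0.153 in limma. The fibrinogen gene Fgb differed by -0.29 (adjusted p = 0.520) and the haptoglobin gene Hp by 0.31 (adjusted p = 0.585). Among 17 genes of plasma carriers and other secreted proteins none passed, and albumin, Alb, averaged 0.87 ± 0.59 on 27 high-fat arrays and 1.36 ± 0.63 on 29 low-fat arrays with an adjusted p of 0.290.

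Secisbp2 and Selenbp2 both relate to selenium and both were lower on the high-fat diet. Secisbp2 binds the element in messenger RNA that allows selenocysteine to be inserted into proteins. Its log2 ratio ran from -1.36 to 1.28 with a median of 0.51 on 26 high-fat arrays, and from -0.23 to 2.72 with a median of 1.17 on 28 low-fat arrays. Only 1 high-fat array lay above the low-fat median, and 11 low-fat arrays lay above every high-fat array. The difference was -0.84 (SE 0.16, adjusted p = 0.00344 in limma), with -0.83, -0.53 and -1.11 at weeks 9, 10 and 11. Selenbp2, a selenium-binding protein gene abundant in mouse liver, ran from -0.83 to 1.79 with a median of 0.01 on 27 high-fat arrays and from -0.55 to 2.13 with a median of 0.92 on 28 low-fat arrays. The ranges overlapped over most of their length, while 24 of 27 high-fat arrays lay below the low-fat median. Its difference was -0.74 (SE 0.18, adjusted p = 0.0440 in limma), and passed in 25 of the 57 fits that each left out 1 array. By week it was -0.99, -1.03 and -0.22. The near-identical gene Selenbp1 may share its probe.

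Nme4 and Dnase2a act on nucleotides and DNA. Nme4, a mitochondrial nucleoside diphosphate kinase, ran from -3.17 to 0.00 with a median of -0.98 on 25 high-fat arrays and from -2.33 to 0.76 with a median of 0.01 on 25 low-fat arrays. Every high-fat array lay below the low-fat median, and 13 low-fat arrays lay above every high-fat array. The difference was -0.84 (SE 0.20, adjusted p = 0.0427 in limma), and Nme4 passed in 33 of the 57 fits that each left out 1 array. Dnase2a, the lysosomal enzyme that degrades DNA of engulfed cells, had the largest difference of the probes tested, -2.09 (SE 0.26), a level 4.26-fold lower with an adjusted p of 1.21e-06 in limma. On 20 high-fat arrays its log2 ratio ran from -2.51 to 0.19 with a median of -1.38, against -1.74 to 3.24 with a median of 0.98 on 21 low-fat arrays. All 20 high-fat arrays lay below the low-fat median, and 17 low-fat arrays lay above every high-fat array. The difference was -2.19, -1.89 and -2.16 at weeks 9, 10 and 11. Another probe of Dnase2a, measured on 56 arrays against 41 for this one, differed by -0.12 (SE 0.11, adjusted p = 0.872), so the probes of this gene disagree and which of them follows the transcript was not tested.

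Rpl13a and Krr1 serve the ribosome, and they differed in opposite directions. Rpl13a encodes a protein of the large subunit. It ran from -1.61 to 0.25 with a median of -0.49 on 28 high-fat arrays, and from -0.63 to 0.51 with a median of 0.04 on 28 low-fat arrays. A total of 26 high-fat arrays lay below the low-fat median, and 11 lay below every low-fat array. The difference was -0.62 (SE 0.11, adjusted p = 0.00115 in limma), and came to -0.30, -0.59 and -0.96 at weeks 9, 10 and 11. At week 10 the high-fat values ran from -0.16 to 0.25 on odd sample numbers and from -1.26 to -0.59 on even ones. The low-fat values of that week ran from 0.02 to 0.43 on odd and from -0.26 to 0.24 on even numbers. At weeks 9 and 11 the odd and even high-fat ranges overlapped. Krr1, a factor of small-subunit assembly, was higher by 0.80 (SE 0.17, adjusted p = 0.0107 in limma). Its log2 ratio ran from -0.92 to 1.51 with a median of 0.51 on 26 high-fat arrays, against -2.04 to 1.32 with a median of -0.10 on 25 low-fat arrays. The groups overlapped over most of their range, although 24 of 26 high-fat arrays lay above the low-fat median.

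Rpl13a was the only member to pass among the 43 cytosolic ribosomal protein genes tested. Of these genes 32 had a difference below 0 and 11 above 0, the median was -0.10, and 8 had an unadjusted p under 0.05, all lower on the high-fat diet. Over all 7744 genes tested, 3880 had a difference below 0 and 301 were lower at an unadjusted p under 0.05. Rpl27 averaged -0.32 ± 0.57 on 28 high-fat arrays and 0.05 ± 0.26 on 27 low-fat arrays, a difference of -0.36 with an adjusted p of 0.350 in limma. Rps24 differed by -0.38 with an adjusted p of 0.519. Ribosomal protein genes have many near-identical pseudogenes, so single values are uncertain. The 50 respiratory chain and ATP synthase genes had none past the threshold, with 33 below 0, 17 above 0 and a median of -0.06. Ndufb4, a subunit of complex I, had the smallest p among them and differed by -0.37 (adjusted p = 0.136 in limma).

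**Figure D3:**
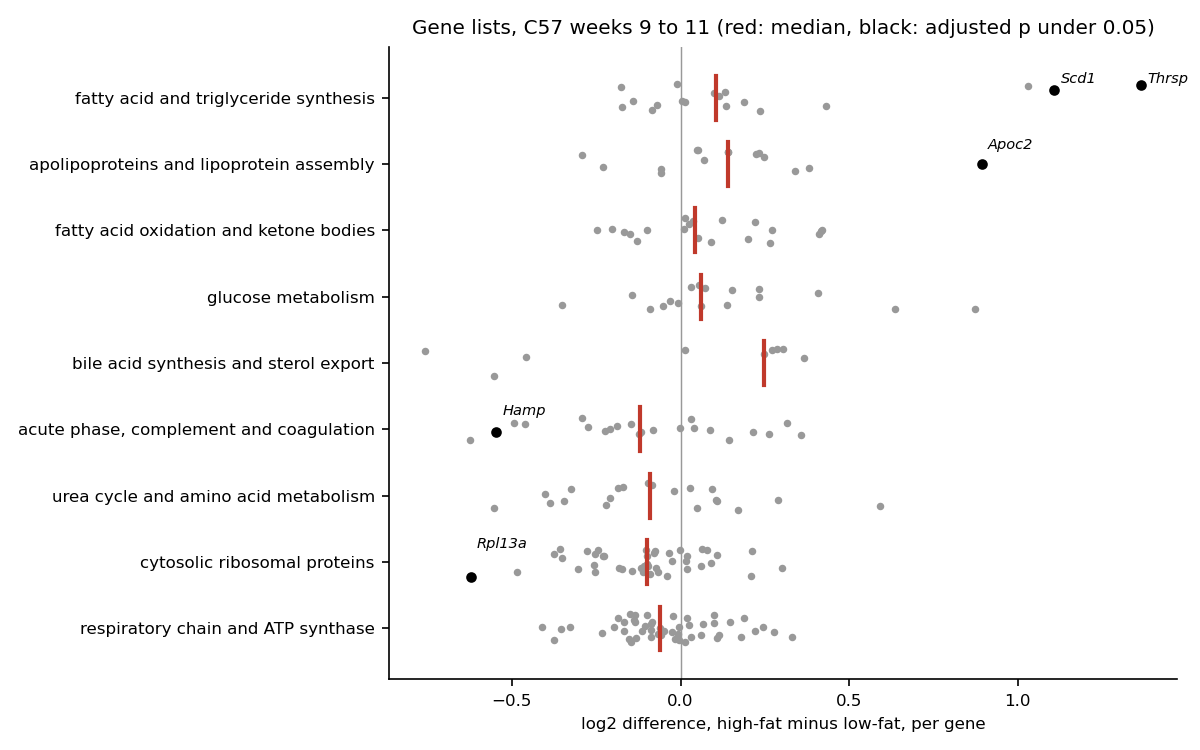
Each point is 1 gene of a list, placed by its log2 difference, high-fat minus low-fat, with the list median in red and genes past the adjusted threshold in black. Scd1 and Thrsp in the synthesis list, Apoc2 among apolipoproteins, Hamp among acute phase genes and Rpl13a among ribosomal proteins are the 5 that passed, and the list medians lie between -0.12 and 0.25.

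Kif21a, Rab28 and Wbp11, which belong to intracellular transport and RNA processing, were higher on the high-fat diet. Kif21a encodes a kinesin that moves along microtubules. Its log2 ratio ran from 0.21 to 2.54 with a median of 1.17 on 27 high-fat arrays, and from -3.53 to 1.61 with a median of 0.33 on 24 low-fat arrays. All but 1 of the high-fat arrays lay above the low-fat median. The difference was 1.16 (SE 0.23, 2.23-fold, adjusted p = 0.00410 in limma), with 0.57, 1.84 and 1.07 at weeks 9, 10 and 11. Rab28, a small GTPase, was higher by 0.59 (SE 0.13, adjusted p = 0.0107 in limma), and ran from -0.47 to 1.51 on 28 high-fat arrays and from -1.50 to 0.46 on 27 low-fat arrays. For Rab28, 26 of 28 high-fat arrays lay above the low-fat median. Wbp11, a WW domain-binding protein of the spliceosome, ran from -0.59 to 3.52 with a median of 1.31 on 27 high-fat arrays and from -0.39 to 1.25 with a median of 0.28 on 27 low-fat arrays. Here 15 high-fat arrays lay above every low-fat array, while 1 lay below all of them. The difference was 0.99 (SE 0.18, adjusted p = 0.00102 in limma), with 0.59, 1.65 and 0.77 at weeks 9, 10 and 11.

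Gabra3, Crybb1 and Tlx3 are known from nervous tissue or the eye rather than from liver. Gabra3, a GABA-A receptor subunit, ran from -0.86 to 2.11 with a median of 0.16 on 27 high-fat arrays and from -0.21 to 2.74 with a median of 1.34 on 28 low-fat arrays. High-fat arrays lay below the low-fat median in 25 of 27 cases. The difference was -1.06 (SE 0.19, 2.08-fold lower, adjusted p = 8.28e-04 in limma). Crybb1, a crystallin of the lens, ran from -1.14 to 1.94 with a median of 0.43 on 24 high-fat arrays and from 0.48 to 2.17 with a median of 0.97 on 28 low-fat arrays. In this gene 15 of the 24 high-fat arrays lay below every low-fat array. The difference was -0.76 (SE 0.14, adjusted p = 0.00254 in limma), but it was -0.49 (adjusted p = 0.816) when ratios at or below 0 were set to the lowest positive ratio of the array instead of being left out. Tlx3, a homeobox factor of developing neurons, was higher by 0.57 (SE 0.12, adjusted p = 0.00633 in limma), and averaged 0.88 ± 0.46 on 27 high-fat arrays and 0.26 ± 0.48 on 28 low-fat arrays. The centred level of each lay above 0 on average on both diets, and what the spots bound in liver RNA was not tested.

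Prr23a3 had the smallest p of all probes. It was measured on all 57 arrays and ran from 0.73 to 3.0 with a median of 1.97 on high-fat arrays, against -1.53 to 1.32 with a median of 0.21 on low-fat arrays. All 28 high-fat arrays lay above the low-fat median, and 21 lay above every low-fat array. The difference was 1.90 (SE 0.18, 3.74-fold, adjusted p = 3.55e-11 in limma), and came to 1.66, 2.33 and 1.67 at weeks 9, 10 and 11. It passed in all 3 fits that left out a week, and Dnase2a in both of those in which it could be tested. The transcript 4933401D09Rik was higher by 0.50 (SE 0.12, adjusted p = 0.0403 in limma), and averaged 0.69 ± 0.38 on 28 high-fat arrays and 0.19 ± 0.46 on 28 low-fat arrays. It passed in 39 of the 57 fits that each left out 1 array, and without week 10 the difference was 0.30 (adjusted p = 0.755).

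Earlier results of these data had drawn attention to 5 more genes, and none of them passed at weeks 9 to 11. Ndp, the gene of the signalling protein norrin, averaged 1.29 ± 0.85 on 24 high-fat arrays and 0.41 ± 0.87 on 26 low-fat arrays, a difference of 0.89 with an adjusted p of 0.111 in limma. Eif3f, a subunit of translation initiation factor 3, differed by 0.75 (adjusted p = 0.0939). The glutathione transferase gene Gstm3 differed by -0.30 (adjusted p = 0.673) and Tmem238l by 0.23 (adjusted p = 0.829). Fkbp11, a prolyl isomerase of the endoplasmic reticulum, had probes of opposite sign, with differences of 0.65 (adjusted p = 0.503) and -0.42 (adjusted p = 0.703).

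The remaining lists had no gene past the threshold, against 0.233% of probes overall. The 20 urea cycle and amino acid genes had a median of -0.09, the 16 cytochrome P450 genes -0.06, the 24 glutathione transferase and conjugation genes -0.05 and the 25 endoplasmic reticulum genes -0.01. The 23 proteasome subunits had a median of 0.06, the 20 histocompatibility and interferon genes -0.02, the 11 clock genes 0.07 and the 12 cell division genes 0.04. Within the urea cycle and amino acid list, Mat1a, which makes S-adenosylmethionine, differed by 0.59 and Tdo2, the first enzyme of tryptophan breakdown, by -0.40, each with an adjusted p of 0.351 in limma.

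Markers of other cell types and tissues gave no gene past the threshold on these arrays. None of 9 macrophage and leukocyte genes passed, nor any of 11 stellate and matrix genes, 4 endothelial genes or 7 bile duct genes. The mean over the leukocyte list was 0.14 ± 0.34 on high-fat arrays and 0.13 ± 0.28 on low-fat arrays. The stellate list averaged -0.06 ± 0.26 on high-fat arrays and 0.01 ± 0.15 on low-fat arrays (SD over 28 and 29 arrays). Among tissues of the pooled reference or next to the liver, none of 12 muscle, 6 fat, 7 kidney or 4 pancreas genes passed, and no red blood cell gene could be tested. The muscle list averaged -0.68 on high-fat arrays and -0.70 on low-fat arrays. Of 8 genes known to differ between male and female liver none passed. At an unadjusted limma p under 0.05, 2 of these 8 were lower on the high-fat diet and none higher. Over all 7744 genes tested 301 were lower and 268 higher at that p.

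**Figure D4:**
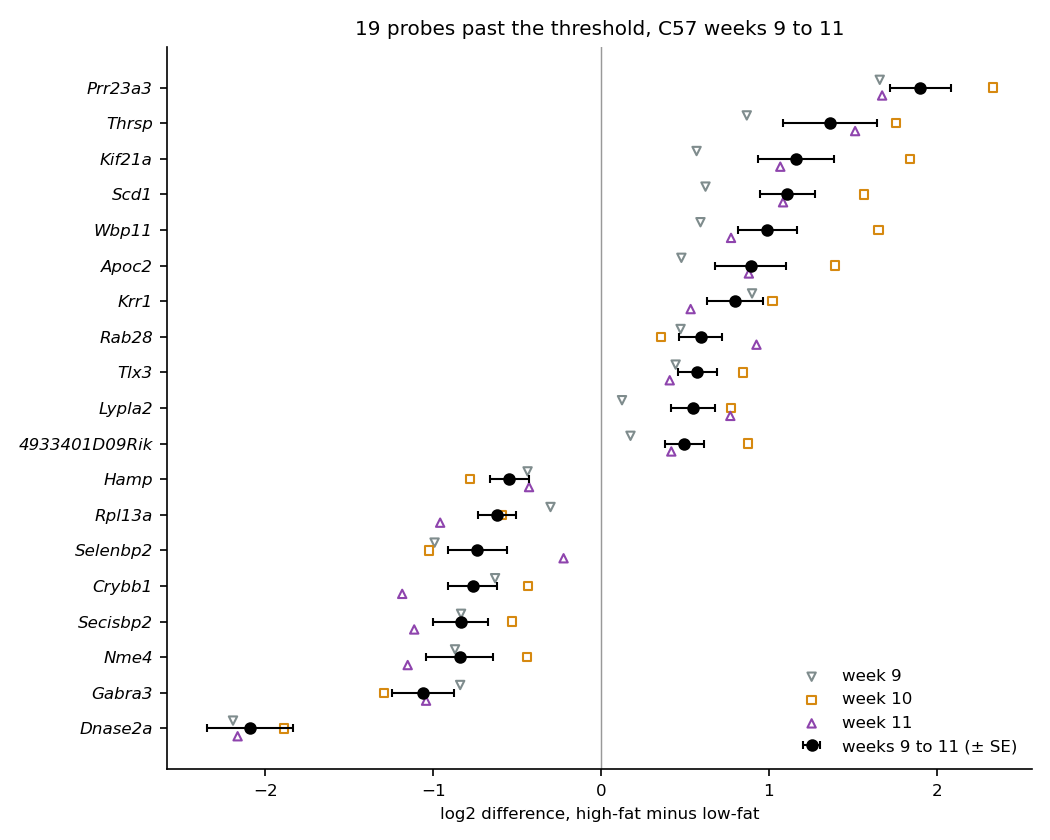
Log2 differences, high-fat minus low-fat, of the 19 probes past the threshold, with black points and bars for weeks 9 to 11 together (estimate and SE) and open symbols for single weeks. All open symbols lie on the same side of 0 as the black point of their row; the closest to 0 is Lypla2 at week 9 with 0.12 and, among the lower probes, Selenbp2 at week 11 with -0.22.

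Within single weeks fewer probes passed. At week 9, 2 of 8151 probes did (0.0245%), Prr23a3 higher and Dnase2a lower (0.0123% each). At week 10, 8 did (0.0981%), all higher on the high-fat diet: Prr23a3, Scd1, Wbp11, Kif21a, 4933401D09Rik, Il6st, Il10 and Tfap2c. At week 11, 4 did (0.0491%), with Prr23a3 and Ms4a6b higher and Rpl13a and Crybb1 lower (0.0245% in each direction). The share of probes with an unadjusted limma p under 0.05 was 1.39% at week 9, 6.94% at week 10 and 12.9% at week 11. Il6st, Il10 and Ms4a6b lay outside the naming rule and are named because their values were seen. For Il6st, the shared receptor chain of the interleukin 6 family, the difference at week 10 was 0.91 (adjusted p = 0.00940 in limma), but another probe of the gene gave -0.16. Il10, an anti-inflammatory cytokine gene, differed by 1.01 at week 10 (adjusted p = 0.0282), and Ms4a6b, a membrane protein gene of leukocytes, by 1.14 at week 11 (adjusted p = 0.0405).

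Whether the diet difference changed between the 3 weeks was tested for each probe, and 1 of 8151 passed (0.0123%), that of Tfap2c, an AP-2 transcription factor gene (adjusted p = 0.00185 in limma). Its difference was -0.36 at week 9, 1.22 at week 10 and -0.86 at week 11. At week 10 its log2 ratio ran from -0.93 to -0.31 on 6 high-fat arrays and from -2.13 to -1.61 on 5 low-fat arrays, and the diets did not overlap. At week 11 it ran from -1.91 to -0.67 on 6 high-fat arrays and from -1.01 to 0.80 on 5 low-fat arrays. Over the 3 weeks together the difference was -0.06 (adjusted p = 0.961). Of the 19 probes that passed over the 3 weeks, none passed this test, so differences in size between weeks, such as those of Scd1 and Kif21a at week 10, were not shown to exceed the spread between arrays.

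The same diets were compared at weeks 1 and 3 to 7 of C57 on 118 arrays, which share no array with weeks 9 to 11. There 50 of 7216 probes passed (0.693%), 34 with a positive difference (0.471%) and 16 with a negative one (0.222%). Over all probes there 46.5% had a difference above 0. Of the 19 late probes 12 could be tested early, 12 had the same sign, 9 had an unadjusted p under 0.05 (9.65% of all probes) and 5 passed the adjusted threshold: Scd1, Kif21a, Nme4, Secisbp2 and Crybb1. The early difference of Scd1 was 1.11 (SE 0.12), that of Secisbp2 -0.86 (SE 0.14) and that of Kif21a 0.70 (SE 0.13). Nme4 differed by -0.62 (SE 0.13) and Crybb1 by -0.45 (SE 0.11), with adjusted p of 0.00455 and 0.0215 in limma. Hamp differed by -0.08 (SE 0.09) and Rab28 by 0.06 (SE 0.09) at the early weeks. Prr23a3, Thrsp, Wbp11, Krr1, Tlx3, Dnase2a and 4933401D09Rik were measured too rarely for the early test.

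A direct test of late minus early passed for none of these 12, which had been chosen by their late values. It passed for 1 of 7216 probes (0.0139%, where 6.8% had an unadjusted p under 0.05), Sumo2, the gene of a ubiquitin-like modifier. The diet difference of Sumo2 was -0.63 at the late weeks and 0.58 at the early weeks, so late minus early came to -1.21 (SE 0.22, adjusted p = 9.83e-04 in limma). On late arrays Sumo2 ran from -1.74 to 0.47 with a median of -0.58 on 23 high-fat arrays, against -1.36 to 1.65 with a median of 0.05 on 26 low-fat arrays, and the late difference alone had an adjusted p of 0.153. The next probes did not pass: Adam2, a sperm surface protein gene, with late minus early of 1.01 (adjusted p = 0.0939), the keratin gene Krt71 with -0.65 and the organic anion transporter gene Slco1a6 with -1.06 (adjusted p = 0.0970 each).

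**Figure D5:**
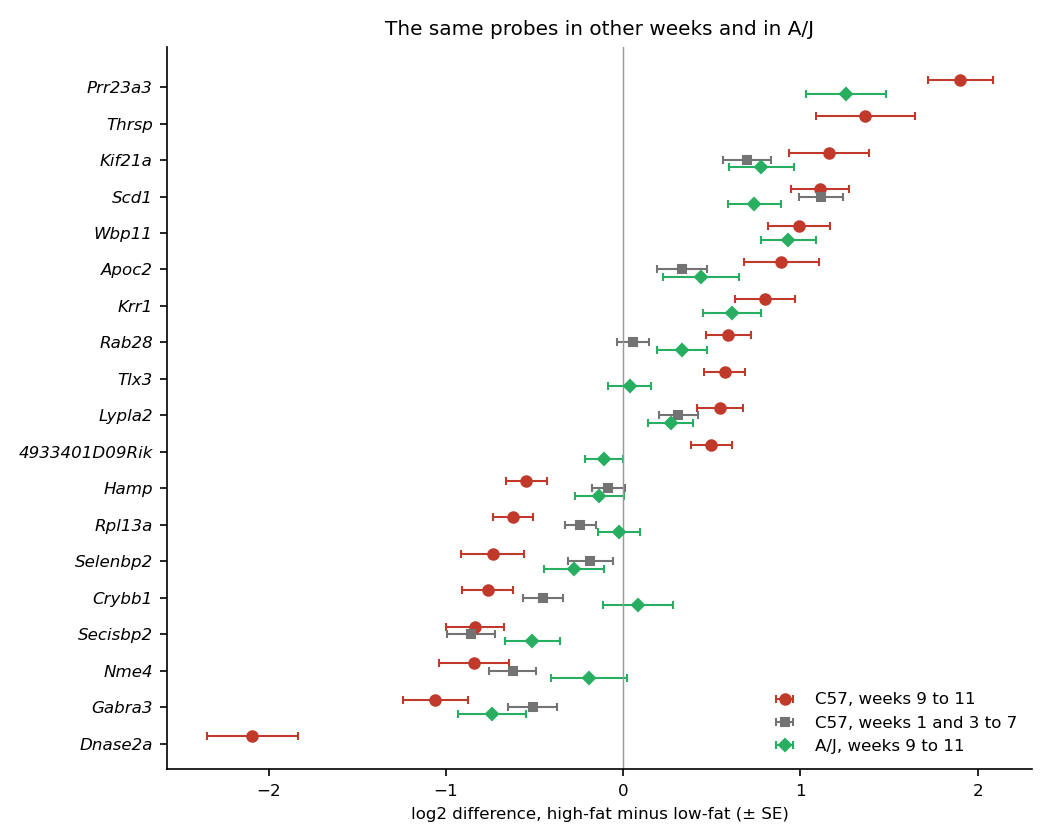
Log2 differences, high-fat minus low-fat, with SE, for the 19 probes in C57 at weeks 9 to 11 (red circles), in C57 at weeks 1 and 3 to 7 (grey squares) and in A/J at weeks 9 to 11 (green diamonds); a missing symbol means that the probe could not be tested there. The early and late values of Scd1 and Secisbp2 lie side by side, and those of Tlx3, Rpl13a, Crybb1 and 4933401D09Rik in A/J lie near 0.

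In A/J at weeks 9 to 11, on 58 arrays, 9 of 8456 probes passed (0.106%), 5 with a positive difference (0.0591%) and 4 with a negative one (0.0473%). Over all probes there 36.9% had a difference above 0. Of the 19 probes 17 could be tested there, 15 had the same sign as in C57, 10 of these had an unadjusted p under 0.05 (10.8% of all probes in either direction) and 4 passed the adjusted threshold, Prr23a3, Scd1, Kif21a and Wbp11. The difference in A/J was 1.26 (SE 0.23) for Prr23a3, 0.74 (SE 0.15) for Scd1, 0.78 (SE 0.18) for Kif21a and 0.93 (SE 0.15) for Wbp11. Crybb1 differed by 0.08 (SE 0.20) and 4933401D09Rik by -0.11 (SE 0.10) in A/J, each opposite in sign to C57. The test of C57 minus A/J found 0 of 8456 probes past the adjusted threshold in limma, with 423 (5%) at an unadjusted p under 0.05, and no other tool was run. For 4933401D09Rik, the smallest p in that test, C57 minus A/J was 0.60 (SE 0.15, adjusted p = 0.857). For Scd1 it was 0.35 (SE 0.21) and for Rpl13a -0.59 (SE 0.17), with adjusted p of 0.967 and 0.888. No gene was shown to respond to diet in C57 in a way that differs from A/J at these weeks.

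The 19 calls rest on all 3 weeks and on arrays as units. Without week 9 the count was 6 (Prr23a3, Kif21a, Scd1, Wbp11, Gabra3 and Rpl13a), without week 10 it was 4 (Prr23a3, Dnase2a, Secisbp2 and Crybb1), and without week 11 it was 5 (Prr23a3, Scd1, Dnase2a, Gabra3 and Selenbp2). With 1 mean per diet and week as the unit 1 probe passed, Dnase2a (adjusted p = 0.0160 in limma), while Prr23a3 had 0.0839.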

How the data were processed

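The data are spotted arrays with 2 colours, liver RNA in Cy5 over pooled reference RNA in Cy3 per the labels. The deposited numbers are linear ratios of liver over reference; scale and direction were read from the values themselves, which average 1 on every array. The authors' image analysis, spot filter and normalization are not given in the sources used here. Empty cells make up 42.4% of the deposited table, and 0.523% of the measured ratios, which lay at or below 0, were left out.

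The log2 of each positive ratio was taken and each array was centred on its median. Probes were tested if they had 1 gene symbol (14711 of 17280, from the array's annotation, which can be old), and were measured on at least 70% of the arrays in a fit and on 3 of every group. This left 8151 probes of 7744 genes, and 6560 with a symbol were not tested. Diet was tested with limma 3.58.1 in R 4.3.3 on single arrays with week as a factor, so a fitted difference can differ from that of the plain means. A fit of the 6 groups of diet and week gave the weekly differences, and fits that added early C57 arrays or A/J arrays gave the contrasts between periods and strains. All p-values were adjusted by Benjamini-Hochberg over all probes of a contrast, at 0.05. The code was tested on simulated data of the main comparison. There 49% of 100 probes given a difference of 0.5 passed, as did 97% of 100 given a difference of 1. Of 7951 unchanged probes 6 passed. Differences of 0.5 can thus be missed, and a list without a gene past the threshold may still hold some. No array of C57 at weeks 9 to 11 was a duplicate or fell below the correlation of 0.15.

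The arrays, genes and 30 gene lists were chosen with earlier results of these data known. Named genes are, among probes past the threshold whose sign was the same in 3 weeks, the 10 largest rises and the 10 largest falls, list members past it, 10 genes that earlier results named, and the 3 smallest p in each direction of an interaction where any passed. A list gene is represented by its probe measured on most arrays. Alternatives were no centring, quantile normalization, other probe filters, a floor for ratios at or below 0, weekly means, averaged consecutive arrays, sample number as a block, array weights, the number of measured probes as a covariate, a robust trend prior, and leaving out weeks or arrays.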

Additional observations from a re-analysis of the deposited data

Results flagged for a closer look

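Single arrays that stood apart from the others of their diet and week were looked for among the named genes in 186 groups of 4 to 10 arrays. Chance flags about 1 in 20 such groups, and 11 values were flagged. Among high-fat arrays these were Hamp at -0.85 and Gstm3 at -1.18 on sample 87 of week 9, Nme4 at -3.17 on sample 88 of week 9, Adam2 at -1.50 on sample 91 of week 10, Wbp11 at 3.52 on sample 92 of week 10, Apoc2 at 2.08 and Secisbp2 at -1.36 on sample 94 of week 10, and Wbp11 at 2.57 on 1 array of week 11. Among low-fat arrays they were Nme4 at -2.33 on sample 81 and 4930428B01Rik at -1.33 on sample 83 of week 9, and Ndp at -2.97 on sample 94 of week 10. The values are centred log2 ratios.

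The diet difference of Sumo2 differed between periods, with late minus early of -1.21 on the log2 scale in limma. That of Tfap2c differed between weeks 9, 10 and 11, with an adjusted p of 0.00185 in limma.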

How the results depend on the processing

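Across 17 alternatives the 19 probes kept their direction in all 314 values that could be computed, and 209 of these passed. The count was 7 with consecutive sample numbers averaged, 1 with weekly means, and 6, 4 and 5 without weeks 9, 10 and 11. Without the 8 arrays that correlate below 0.5 with the median array, all of them low-fat, a choice made after seeing the data, it was 10. With ratios at or below 0 set to the lowest positive ratio of the array it was 14, and the calls of Apoc2, Lypla2, Nme4, Crybb1 and Selenbp2 ended. Leaving out each array in turn gave 14 to 21, and 14 of the 19 passed in all 57 such fits. The calls split 8 higher and 11 lower without centring and 11 and 16 with quantile normalization, against 11 and 8 as reported. Within week 9 the count of 2 became 1 with probes measured on 90% of arrays, 0 with averaged arrays and 10 with array weights. Within week 10 the count of 8 became 5 with averaged arrays, 13 with the sample number as a random replicate block and 3 with array weights. Within week 11 the count of 4 became 2 with quantile normalization, 26 with the random block and 0 with array weights. The 1 probe that changed between weeks became 0 with quantile normalization and with 90% of arrays, and 2 with 50% of arrays and with the random block. For late minus early the 1 became 0 with quantile normalization, 90% of arrays and array weights, and the strain contrast stayed at 0 in every alternative run for it. Tfap2c reversed its sign over the 3 weeks, to 0.0019 with weekly means, 0.089 with averaged arrays, 0.24 without week 11 and 0.073 without the arrays below 0.5; the cause of these moves was not tested. With sample number as a replicate block the main count was 25 (random) and 19 (fixed, on 48 arrays, 11 shared). Whether the numbers pair the arrays was not settled. Of 24 pairs with the same number 10 correlated above 0.1, the median was 0.0669, and 7 correlated best with their own number. Each high-fat array had 9 or 10 low-fat arrays of its week to match, and the level that chance gives was not computed. The random block fitted a correlation of 0.1065 between arrays of the same number.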

Other observations

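Among all probes tested 49.7% had a difference above 0. Of 9 genes of bile acid synthesis and sterol export tested none passed, 6 lay above 0 and 3 below, and the median was 0.25. The 3 below 0 are named here because their values were seen, and for none of them did the diet difference pass the test of a change between weeks (adjusted p of 0.863, 0.826 and 0.734 for Cyp7b1, Cyp8b1 and Slco1a1 in limma). Cyp7b1, an enzyme of the alternative bile acid pathway, averaged -1.11 ± 1.09 on 18 high-fat arrays and -0.17 ± 1.47 on 23 low-fat arrays, and its difference was -0.93 at week 9, -1.03 at week 10 and 0.32 at week 11 (adjusted p = 0.564 over the 3 weeks in limma). Cyp8b1, the sterol hydroxylase that makes cholic acid, differed by -1.13, -0.74 and 0.15 at these weeks (adjusted p = 0.703). Slco1a1, an organic anion transporter gene, differed by -0.90, -0.74 and 0.24 (adjusted p = 0.673). The sterol exporter genes Abcg5 and Abcg8 differed by 0.29 and 0.27, with adjusted p of 0.610 and 0.647.

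Just outside the threshold over the 3 weeks lay Afg3l1, a mitochondrial protease gene, at -0.47 (adjusted p = 0.0510 in limma), Chst11, a chondroitin sulfotransferase gene, at -0.52 (adjusted p = 0.0597) and the signalling gene Shh at -0.49 (adjusted p = 0.0780). Other probes of Afg3l1 and Chst11 gave -0.14 and 0.10. Crot, which transfers medium-chain fatty acids to carnitine in peroxisomes, differed by -0.56 (adjusted p = 0.102), with -0.87, -0.64 and -0.22 at weeks 9, 10 and 11.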
